A study of Mus musculus with 4 samples.

Results

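Clustered histone genes are the copies of the histone genes that lie side by side in a few chromosomal clusters and carry the names Hist1h to Hist4h. The members described here are the autosomal genes whose name on the array begins with Hist1h, Hist2h, Hist3h or Hist4h, control spots left out. They came to 7 genes with 9 probes, of 20445 autosomal genes with 52385 probes. Of these, 5 genes with 7 probes belong to the Hist1 cluster on chromosome 13, 1 gene to Hist2 on chromosome 3 and 1 pseudogene to Hist3 on chromosome 11. No gene with a Hist4h name and no H3 gene was among them. The RefSeq table of assembly GRCm38.p6 lists 70 autosomal genes with such names, 56 of them on chromosome 13, so most copies were not measured. The members were chosen by name, with earlier results of these data known, and all 7 had values on all 4 arrays.

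Genomic DNA was measured by array comparative genomic hybridisation. Sample and reference DNA are labelled with separate dyes and hybridised to one array, and the ratio of the dyes on a probe reflects the relative amount of its sequence. The 4 samples form 1 group of mouse liver cells with the genotype TAK1LPC-KO_RIP3-_-, which lacks the kinase TAK1 (gene Map3k7) in liver parenchymal cells together with the kinase RIP3 (gene Ripk3). Their DNA came from formalin-fixed, paraffin-embedded (FFPE) sections and was labelled with Cy5. The reference, labelled with Cy3, was a pool of DNA from 4 normal livers. No age is given, the Cre driver of the deletion and the genotype of the pool are not named, and no group with only 1 of the deletions is included. The pool was the only control, so a ratio was tested against 0 and the spread between normal livers is left out. The software had normalised the dyes, but they were not swapped, so dye bias particular to a probe was not removed from any ratio. The labels do not say whether the 4 samples are separate animals, and the p-values cover the spread among these 4 samples alone, some or all of which may be technical. Sections hold several cell types, and DNA carries no expression marker by which the liver cells could be checked. Replicates 1 and 2 were hybridised on slide 1, replicates 3 and 4 on slide 2.

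Histones are the proteins around which DNA is wound. The core histones H2A, H2B, H3 and H4 form the nucleosome, and the linker histone H1 binds where DNA enters and leaves it. The clustered genes are transcribed when DNA is replicated, mostly lack introns, and give messenger RNAs that end in a conserved stem-loop instead of a poly(A) tail. The stem-loop is bound by the stem-loop binding protein, which is needed for the processing of these RNAs.

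The array reported on short stretches of DNA named after these genes, and the stretches shown here are the ones on which the results turn. Positions are on mouse build mm9, as the files give them. Exon and intron annotation on mm9 was not used here. The Hist1h4i probe lies at chr13:22132819-22132871. Its reverse complement holds the letters of the histone stem-loop, whose 6-base stems and 4-base loop are in capitals in this stretch of 26 bases:
Hist1h4i: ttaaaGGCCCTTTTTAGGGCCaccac
The histone stem-loop was searched on both strands as a run of 16 bases with the fixed letters GG, TTTT, AG and CC at their places in it and any base elsewhere. It was found in 5 of the 52385 autosomal probes (0.0095%), of which Hist1h4i was the only histone probe. A match to these letters is a description of the probe and not of its hybridisation.

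The probe of the Hist3 pseudogene, Hist3h2bb-ps, lies at chr11:58767974-58768033. All 60 of its bases are found in the RefSeq promoter window (GRCm38.p6) of the neighbouring histone gene H2aw, from 213 to 154 bases before its start, so the probe reads DNA upstream of that gene as well. It is shown whole:
Hist3h2bb-ps: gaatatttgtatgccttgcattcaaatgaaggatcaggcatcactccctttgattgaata
Both Hist1h2be probes are shown by their first 30 bases because they gave different ratios. They start 14090 bases apart, at chr13:23698823-23698882 and chr13:23712913-23712969. Of the 57 bases of the second, 56 match the promoter window of H2bc6, the RefSeq name of Hist1h2be, and span its start site. The Hist1h1e probe at chr13:23713665-23713717 starts 752 bases further on.
Hist1h2be probe 1: gctttgcgatcaatcttaaacaatctactg
Hist1h2be probe 2: agggattgtgtaaaatttaactccctccct
Hist1h1e: cctttgggttgttgggcttctaagcagttg
The Hist1h2ac probes are also shown by their first 30 bases because they too gave different ratios. They lie at chr13:23773671-23773730 and chr13:23774927-23774986.
Hist1h2ac probe 1: tacaatagcaatagcacttgtttttgactg
Hist1h2ac probe 2: atggataacgttggtaattcataagaactc

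Histone genes are close copies of each other, so a probe could in principle read several of them. No histone probe shared a run of more than 16 bases with any other probe of the array, and none shared more than 9 with another histone probe. Matches elsewhere in the genome were not analysed here. The GC content of the 9 probes ran from 35 to 42.1%, with a median of 38.3% against 36.7% over autosomal probes.

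Values are log2 ratios of sample over pool, each array shifted so that its median autosomal probe stands at 0. A gene's ratio is the mean of its probes. A gene was called at an adjusted p under 0.05 and a mean at least 0.25 from 0, in a limma fit over all autosomal genes with Benjamini-Hochberg adjustment. By this rule, 35.4% of all autosomal genes were called (16.1% higher and 19.3% lower in the samples), and 41.8% of genes with 1 probe. Of the 7 histone genes 3 were called, 1 higher (Hist1h2bg) and 2 lower (Hist1h4i and Hist3h2bb-ps). The median of the 7 means was -0.13, against -0.01 over all genes. A share of 3 in 7 is near the background and is not a result about histone genes as a group. Without replicate 1, or without replicate 4, only 1 of the 7 was called, and the share over all genes was not counted there.

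**Figure D1:**
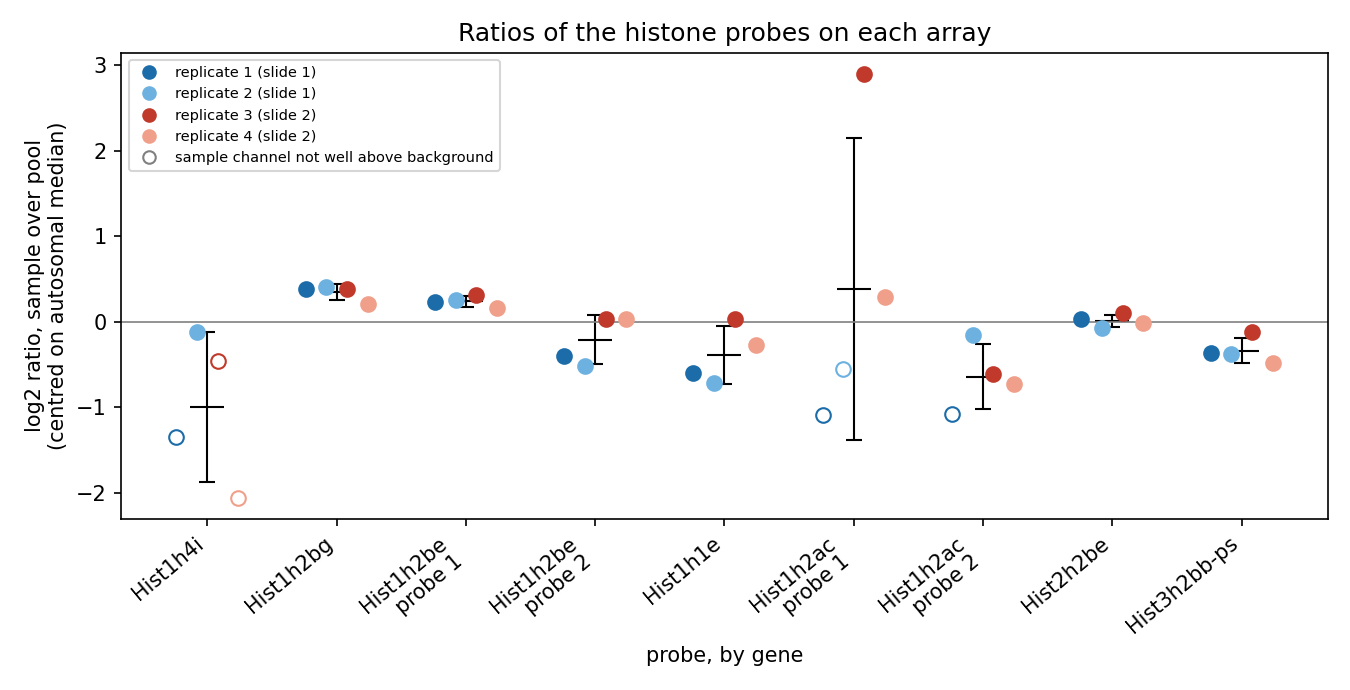
Log2 ratio of sample over pool (vertical axis) of each of the 9 histone probes on each of the 4 arrays (coloured points), with the mean and SD (black bars) and open points where the sample channel was not well above background. The Hist1h4i points run from -2.06 to -0.12 and 3 of 4 are open, and the first Hist1h2ac probe reads 2.90 on replicate 3 and at most 0.29 on the others.

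The core histone gene Hist1h4i, which encodes histone H4, had the lowest ratio of the 7. Its log2 ratios were -1.35, -0.12, -0.46 and -2.06 on replicates 1 to 4, with a mean of -0.997 ± 0.88 (SD, n = 4; adjusted p = 0.0401, limma). The ratio was below 0 on all 4 arrays, but its size differed so much between them that its SD was larger than that of 99.6% of autosomal genes. The processed intensities in the samples were 119.5, 344.6, 217.9 and 58.9, against 309.8, 385.1, 299.7 and 243.7 in the pool. The pool channel was well above background on all 4 arrays, and the sample channel on replicate 2 alone, the array with the ratio of -0.12. On replicate 4 the software had put a surrogate value in place of the sample signal. The size of the Hist1h4i ratio therefore rests on 3 arrays on which the sample was not well above background.

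The Hist1h4i call was lost under several alternatives, in some of which the size held. Without replicate 1 the mean was -0.88 (adjusted p = 0.124, limma), without replicate 3 it was -1.18 (0.0532), and after a correction for probe GC content it was -0.94 (0.0504). Without replicate 4 it was -0.64 (0.0851). The normexp background correction subtracts the local background, fits 1 model of background and signal per array and channel, and here added an offset of 50 to each signal, which by construction draws the ratios of dim spots towards 0. It started from the raw signals, so the dye normalisation of the software was left out as well. With normexp the mean was -0.12 (adjusted p = 0.247, limma). The parts of correction, offset and dye normalisation were not told apart, here or for the other genes. A 6-base stem with a 4-base loop occurs in 954 autosomal probes (1.82%), and 36.6% of these were not well above background in the samples on 3 or 4 arrays. Over the other 51431 probes that share was 9.07%. The median of the mean log2 ratios was -0.039 over the 954 probes and -0.003 over the others. The mean ratios of the 4 other probes with the histone stem-loop letters ran from -0.39 (Hbegf) to 0.61 (C530005A16Rik), and none was dim on more than 1 array. The part of the stem-loop in the Hist1h4i signal was not tested.

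The linker histone gene Hist1h1e, which encodes H1.4, had log2 ratios of -0.59, -0.72, 0.03 and -0.27. Its mean was -0.39 ± 0.34 (SD, n = 4; adjusted p = 0.0507, limma), just outside the threshold. Both arrays of slide 1 were lower than both arrays of slide 2, with slide means of -0.66 and -0.12. The contrast between slides had an unadjusted p of 0.0149 and an adjusted p of 0.439 for this gene (limma). The adjusted p was under 0.05 for 0 of 20445 genes by limma, and the unadjusted p for 2207 genes (10.8%). The contrast set 2 arrays against 2, so the lack of adjusted calls does not show that the slides were alike. Hist1h1e passed the threshold without replicate 3 (-0.53, adjusted p = 0.0214, limma), with normexp (-0.40, 0.0102) and in the authors' deposited log2 values (-0.64, 0.0354). Other passes were with probes well above background on every array (-0.41, 0.0238), centring on the mode (-0.42, 0.0468) and the median over probes (-0.39, 0.0486). Hist1h1e did not pass without replicate 1 (-0.32, 0.158), 2 (-0.28, 0.159) or 4 (-0.43, 0.0884). Nor did it pass after GC correction (-0.33, 0.0832) or with slide means as samples (-0.39, 0.0918). Slide as a random block (-0.39, 0.0536) and outlier-flagged spots kept (-0.39, 0.0508) also left it outside the threshold. All 4 spots were well above background in both channels.

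The core histone gene Hist1h2ac encodes a histone H2A, and its 2 probes start 1256 bases apart. As a gene it gave -1.09, -0.35, 1.14 and -0.22, with a mean of -0.13 ± 0.93 (SD, n = 4; adjusted p = 0.772, limma). Its SD was larger than that of 99.7% of autosomal genes. The first probe read -1.09, -0.55, 2.90 and 0.29, and the second -1.08, -0.16, -0.61 and -0.73. The probes read alike on replicate 1 and differed most on replicate 3, where the first was the highest histone value on any array and the second was below 0.

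The high value of the first Hist1h2ac probe lay in the sample channel of 1 spot. Its sample intensity was 98.0, 200.3, 1744 and 306.9 on replicates 1 to 4, while the pool gave between 212.4 and 302.4. On replicate 3 the local background of the spot in the sample channel was 174, against 63, 58.5 and 59 on replicates 1, 2 and 4, and the 99th percentile of that array was 72. The 35 other histone spots had local backgrounds between 56 and 68.5. The 23 probes within 2 rows and 2 columns of the spot had a median log2 ratio of 1.00 on replicate 3 and between 0.00 and 0.07 on the other arrays. The negative control in that square, designed to bind no genomic DNA, gave 173.6 on replicate 3 and between 67.3 and 71.6 on the others. In the pool channel the local background of the spot was 45 on replicate 3 and 48 to 50 on the others. The raised signal was thus shared by the spots around the histone probe and lay in the sample channel. The correction by normexp left 1.32 on that spot.

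Without replicate 3, Hist1h2ac had a mean of -0.55 (adjusted p = 0.0661, limma). The second probe alone had a mean of -0.64 ± 0.38 (SD, n = 4; adjusted p = 0.0150 in a limma fit over all autosomal probes, of which 36.9% were called). It was below 0 on 4 of 4 arrays, and its sample signal was not well above background on replicate 1. That fit was added after the values were seen. With normexp the second probe read -0.32, 0.03, -0.21 and -0.37 on replicates 1 to 4.

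**Figure D2:**
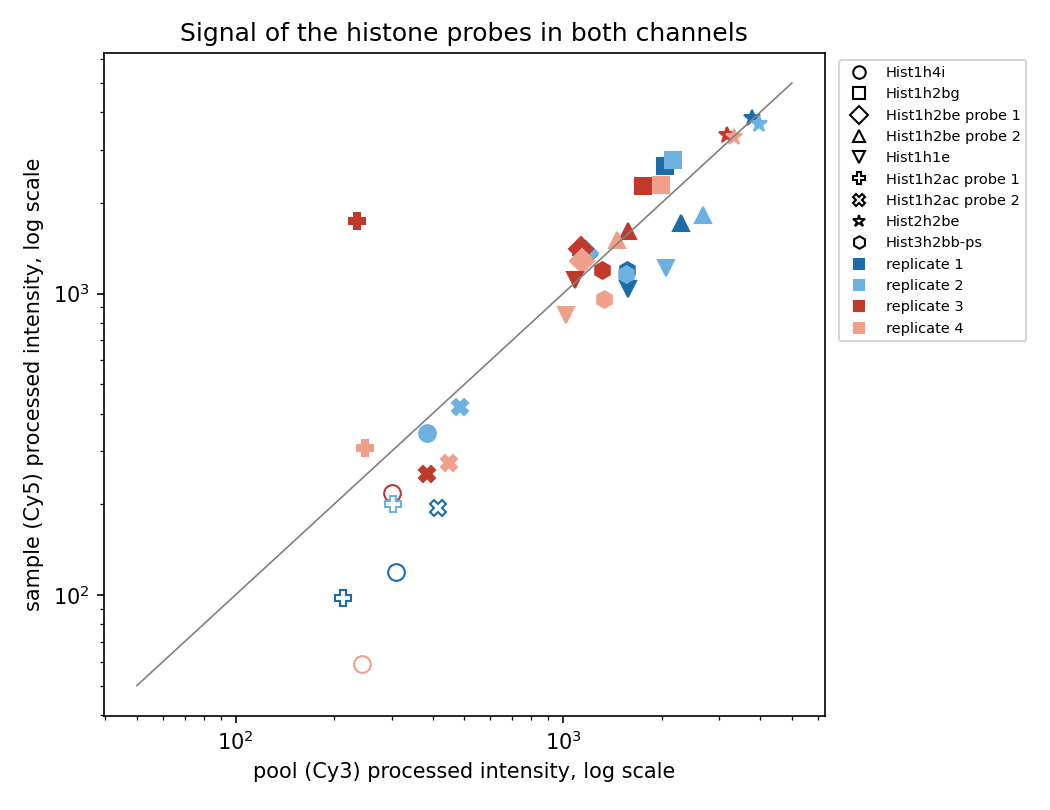
Processed intensity in the samples (vertical axis, log scale) against that in the pool (horizontal axis, log scale) for each histone probe (symbol) on each array (colour), with the line of equality and open symbols where the sample was not well above background. The first Hist1h2ac probe on replicate 3 (1744 against 234.5) stands far above the line, and the open symbols all lie at or under 217.9 in the samples.

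The core histone gene Hist1h2bg, which encodes a histone H2B, was the only member called higher. Its single probe lies at chr13:23663836-23663892 and gave log2 ratios of 0.39, 0.40, 0.38 and 0.20. The mean was 0.34 ± 0.09 (SD, n = 4; adjusted p = 0.00927, limma), and 4 of 4 arrays were above 0. Replicates 1 to 3 lay close together and replicate 4 was lower. Of autosomal genes 88.5% had a lower mean. With normexp the mean was 0.16, under the size limit of 0.25.

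The other H2B gene of the cluster, Hist1h2be, gave -0.08, -0.13, 0.17 and 0.09, with a mean of 0.01 ± 0.14 (SD, n = 4; adjusted p = 0.897, limma). This mean joined probes of opposite sign. The first probe was above 0 on every array, at 0.23, 0.26, 0.32 and 0.16. The second, which spans the start site, gave -0.40, -0.51, 0.03 and 0.03. It was low on slide 1 and near 0 on slide 2, the same order of slides as Hist1h1e, whose probe starts 752 bases away. In the fit over all probes, the adjusted p was 0.0525 for the first and 0.205 for the second (limma).

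The Hist2 and Hist3 clusters were each measured by 1 probe. Hist2h2be, an H2B gene at chr3:96026308-96026367, had log2 ratios of 0.03, -0.08, 0.10 and -0.02 and a mean of 0.01 ± 0.07 (SD, n = 4; adjusted p = 0.918, limma). Its spots were the brightest of the histone probes, at 3314 to 3817 in the samples, and 12.0% of autosomal genes had a smaller SD. With normexp its mean was -0.18. The pseudogene Hist3h2bb-ps had log2 ratios of -0.36, -0.38, -0.13 and -0.48 and a mean of -0.34 ± 0.15 (SD, n = 4; adjusted p = 0.0162, limma). It was below 0 on 4 of 4 arrays, least so on replicate 3. Without replicate 1, 2 or 4 the mean was -0.33, -0.32 and -0.29, and the call was lost as the adjusted p moved to 0.0553, 0.0576 and 0.0576 (limma). Without replicate 3 the call was kept.

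Whole chromosomes differed from 0 in these arrays, so each gene was also set against its surroundings. The median of autosomal probes on chromosome 13 was 0.18 ± 0.04 (SD, n = 4), on chromosome 3 it was -0.026 ± 0.0044 and on chromosome 11 it was -0.095 ± 0.012. The flank of a gene was the median of probes of other names within 500 kb, taken on each array, with histone probes left out for histone genes. All autosomal genes with at least 5 such probes were fitted in the same way, and 30.6% of 20213 were called (15.1% higher and 15.5% lower than their flank), and 37.2% of genes with 1 probe. Of the 7 histone genes 2 were called, both lower, namely Hist1h4i and Hist1h1e. Without replicate 1 the count was 1, and without replicate 3 it was 4, and the share over all genes was not counted there. The median of the 7 differences was -0.22, against 0.00 over all genes.

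**Figure D3:**
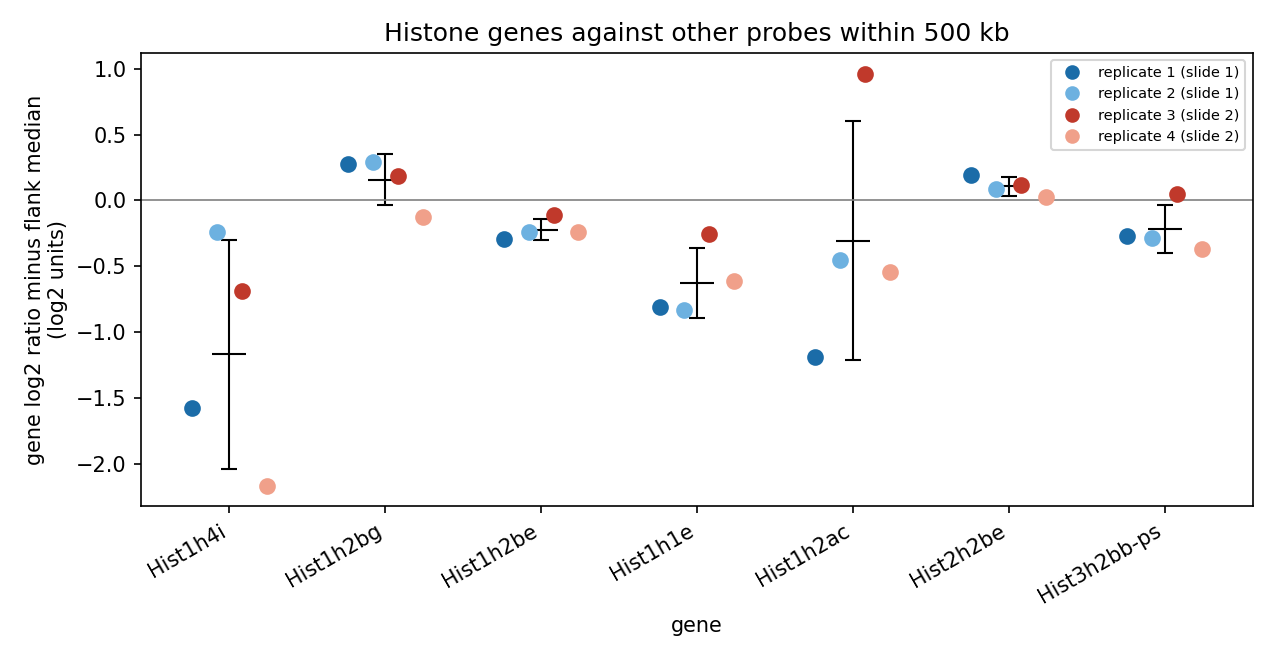
Difference between each histone gene's log2 ratio and the median of probes of other names within 500 kb (vertical axis, log2 units) on each of the 4 arrays (coloured points), with the mean and SD (black bars). Hist1h1e lies between -0.83 and -0.25 and Hist1h4i between -2.17 and -0.24, both below 0 on every array.

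Hist1h1e differed from its flank by -0.81, -0.83, -0.25 and -0.61, a mean difference of -0.63 ± 0.27 (SD, n = 4; adjusted p = 0.00647, limma). It was below its flank on 4 of 4 arrays, and 1 of its 41 flank probes had a lower mean ratio. Hist1h4i differed from its flank by -1.58, -0.24, -0.69 and -2.17, with a mean of -1.17 ± 0.87 (SD, n = 4; adjusted p = 0.0204, limma). None of its 32 flank probes had a lower mean. The Hist1h4i difference was not called without replicate 1 (-1.03, adjusted p = 0.0738). With normexp it was called at a smaller size (-0.29, 0.0106). The dim spots behind it are those described above.

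The other 5 differences were not called. Hist1h2be was below its flank on 4 of 4 arrays, at -0.30, -0.24, -0.11 and -0.24, with a mean of -0.22 ± 0.08 (SD, n = 4; adjusted p = 0.0519, limma). With normexp it passed the threshold (-0.29, adjusted p = 0.00331). With a flank of 250 kb it was -0.12 (0.287), with 1000 kb -0.17 (0.110) and after GC correction -0.18 (0.0937). Hist1h2ac differed from its flank by -0.31 ± 0.91 (SD, n = 4; adjusted p = 0.457, limma) and, without replicate 3, by -0.73 (0.0241). Its second probe alone lay at -1.19, -0.26, -0.79 and -1.06 against the flank.

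Hist1h2bg, called higher than the pool, was 0.28, 0.29, 0.18 and -0.13 from its flank. The mean difference of 0.16 ± 0.19 (SD, n = 4) was not called (adjusted p = 0.225, limma), and 32 of its 46 flank probes had a lower mean ratio. A flank of 250 kb gave 0.28 (adjusted p = 0.0421) and a correction for GC content 0.29 (0.0448). A flank of 1000 kb gave 0.16 (0.191), probes well above background on every array 0.12 (0.263) and normexp 0.0025 (0.976). Without replicate 1 or 2 the Hist1h2bg difference was 0.12 (0.472) and 0.11 (0.486). Hist2h2be was above its flank on 4 of 4 arrays, by 0.11 ± 0.07 (SD, n = 4; adjusted p = 0.283, limma). With normexp the Hist2h2be difference was -0.06. Hist3h2bb-ps was below its flank on 3 of 4 arrays, at -0.27, -0.28, 0.05 and -0.37, with a mean of -0.22 ± 0.18 (SD, n = 4; adjusted p = 0.101, limma). It passed the threshold with normexp (-0.25, adjusted p = 0.00698, limma), with a flank of 1000 kb (-0.25, 0.0412) and without replicate 3 (-0.31, 0.0495). The Hist3h2bb-ps difference also passed with probes well above background on every array (-0.25, 0.0406) and after GC correction (-0.28, 0.0452). Not passing were a flank of 250 kb (-0.27, 0.0531) and the deposited log2 values (-0.28, 0.0642).

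By cluster, the Hist1 genes had mean log2 ratios of -0.55, -0.18, 0.25 and -0.45 on the 4 arrays, while the median of the 90 other probes in and around the cluster was 0.22, 0.12, 0.20 and 0.23. The difference was -0.42 ± 0.38 (SD, n = 4), and no test was made of a score over the members. It was 0.05 on replicate 3 and between -0.76 and -0.31 on the other arrays. With Hist1h2ac taken from its second probe alone it was -0.76, -0.27, -0.30 and -0.78, a mean of -0.53 ± 0.28 (SD, n = 4). With only the genes that were well above background on every array it was -0.20. The 7 probes also lay unevenly, with 1530964 bases between the Hist1h4i probe and the next, and the other 6 within the last stretch of the 1642 kb spanned.

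**Figure D4:**
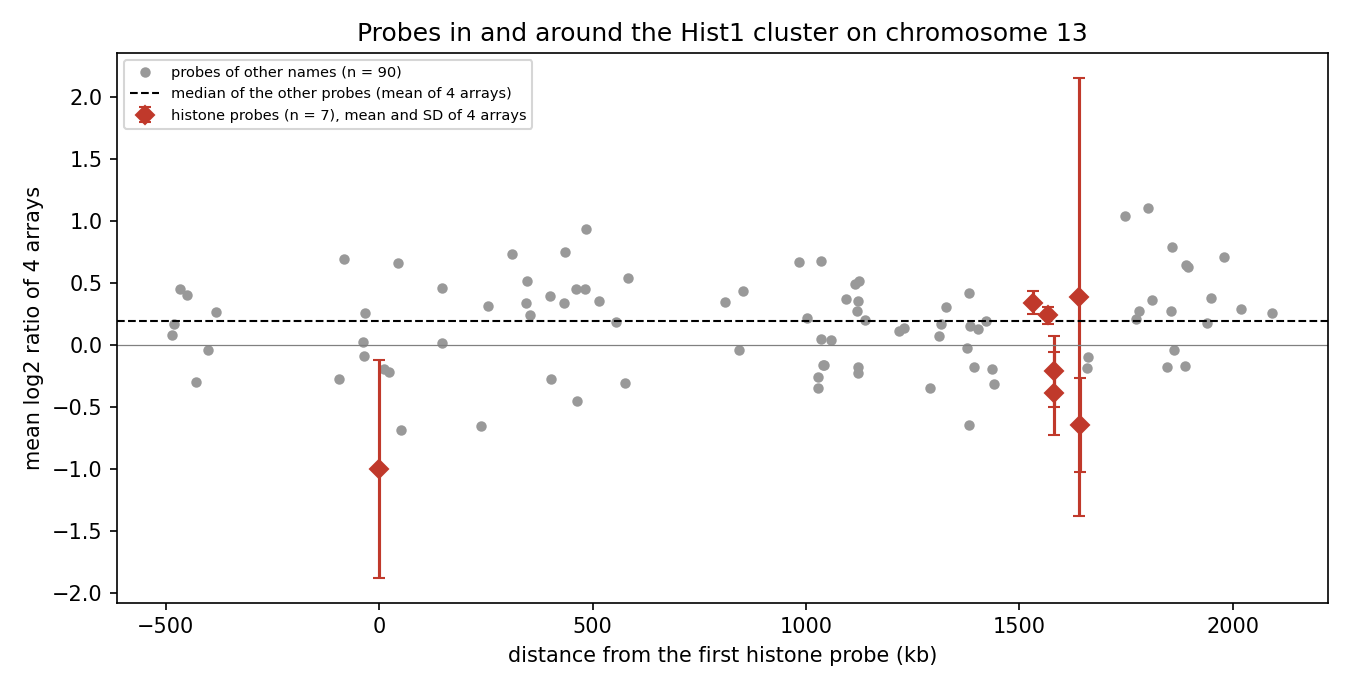
Mean log2 ratio of sample over pool over the 4 arrays (vertical axis) against the distance from the first histone probe (horizontal axis, kb) for the 7 Hist1 probes (red diamonds, with the SD) and the 90 probes of other names (grey points), with the flank median of 0.19 dashed. The histone probes lie on both sides of the dashed line, from -0.997 to 0.39.

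Genes of other names in the same stretches were called in both directions, and their counts are to be read against the 16.1% of all autosomal genes called higher and 19.3% called lower. Around Hist1, 33 such genes were measured, of which 11 were called higher and 5 lower (48.5% in all, against the background of 35.4%). Those furthest from 0 were Trim38 (1.04 ± 0.40), the sodium-phosphate transporter gene Slc17a3 (0.74 ± 0.58), the transcript ENSMUST00000122016 (-0.68 ± 0.40), and the vomeronasal receptor genes Vmn1r195 (-0.65 ± 0.36) and Vmn1r202 (0.45 ± 0.11; SD, n = 4 each). These calls are against the pool, and the median probe of chromosome 13 stood at 0.18. Of the 11 called higher, Trim38 alone was also called against its flank (0.89, adjusted p = 0.00739, limma). Slc17a3 (0.58, 0.0540) and Vmn1r202 (0.26, 0.0507) were not. All 5 called lower were also called against their flanks. Around Hist2h2be, 2 of 29 were called higher and 9 lower, led by Mtmr11 (-0.72 ± 0.54), Bola1 (-0.66 ± 0.17), the Fc receptor gene Fcgr1 (-0.56 ± 0.16), Hfe2 (0.50 ± 0.19) and the splicing factor gene Prpf3 (0.49 ± 0.17). Around Hist3h2bb-ps, 0 of 23 were called higher by limma (1 was higher at an unadjusted p under 0.05) and 5 lower, 21.7% in all. Among these were the olfactory receptor genes Olfr319 (-0.68 ± 0.28) and Olfr313 (-0.39 ± 0.21), 2310033P09Rik (-0.54 ± 0.20) and the ligand gene Wnt9a (-0.32 ± 0.16; SD, n = 4 each). Several of these values moved with the processing. Replicate 3 carried much of Slc17a3 and Mtmr11, which without it were called at 0.46 and -0.46. Their calls were lost with the size kept without replicate 1 or 4 for Slc17a3 (0.79 and 0.79) and without replicate 2 or 4 for Mtmr11 (-0.76 and -0.78). With normexp Trim38 was at 0.71, Slc17a3 at 0.39, Hfe2 at 0.33 and Prpf3 at 0.30, all still called. Not called with it were Mtmr11 (-0.094, adjusted p = 0.326, limma), Vmn1r202 (0.23), 2310033P09Rik (-0.248) and Wnt9a (-0.22). After GC correction ENSMUST00000122016 (-0.31, adjusted p = 0.145) and Olfr313 (-0.27, 0.0566) were not called, and 2310033P09Rik was at -0.33. With only probes well above background on every array Slc17a3 was at 0.35, and in the authors' deposited log2 values 2310033P09Rik was at -0.82. Olfr313 was not called without replicate 1 or 2 (-0.31 and -0.34), nor Wnt9a without replicate 1, 3 or 4 (-0.33, -0.33 and -0.24), nor either with slide means as samples (-0.39 and -0.32).

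Histone genes outside the clusters, which encode variants made independently of replication, and the genes that act on clustered histone genes and histones were taken as lists. Of 17 variant histone genes 10 were measured, of which 0 were called higher by limma (also 0 at an unadjusted p under 0.05) and 3 lower, with a median of -0.13. These were H2afy2, a macroH2A gene (-0.66 ± 0.22), H2afj (-0.60 ± 0.11) and H1fnt, a linker histone gene of the testis (-0.56 ± 0.13; SD, n = 4 each), each below 0 on 4 of 4 arrays. Of 25 genes for histone RNA processing, histone locus factors and histone chaperones 18 were measured, of which 3 were called higher and 1 lower, with a median of 0.03. Daxx, a chaperone of H3.3, was at -0.71 ± 0.24. Casp8ap2, a factor of the histone locus body, was at 0.41 ± 0.07 and Coil, the coilin gene, at 0.31 ± 0.21 (SD, n = 4 each). The Coil call was lost without replicate 1 (0.28, adjusted p = 0.113, limma), 2 (0.23, 0.126) or 3 (0.31, 0.0943), with slide means as samples (0.31, 0.0848) and with normexp (0.18, under the size limit). Daxx was at -0.39 after GC correction and -1.14 in the authors' deposited log2 values, H2afy2 at -0.39 with normexp and H2afj at -0.99 in the deposited values, all still called. Without replicate 1, or without replicate 2, this list had 2 calls in all, and with only probes well above background on every array it had 8. With all arrays and probes, the share called in both lists was below the background of 35.4%. The share over all genes was not counted under the alternatives, nor is the number of list genes left by the filter given. The 2 and the 8 calls therefore have no background to be read against.

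Across the series, the derivative log ratio spread, a measure of noise between neighbouring probes, was 0.376 to 0.417. The sample channel was well above background for 84.3 to 89.9% of probes and the pool for 94.4 to 97.7%. Of the 36 histone spots 6 were dim in the sample and none in the pool, on 3 of 9 probes, and 17.8% of autosomal probes were dim in the sample on at least 1 array. Map3k7 was at 0.65 ± 0.13 and Ripk3 at -0.08 ± 0.06 (SD, n = 4). Their 2 probes each may lie outside the deleted parts, and they check no label.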

How the data were processed

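The deposited intensity values are processed Cy5 and Cy3 signals, made with Agilent Feature Extraction version 10.10.1.1 and placed on build mm9, per the file headers. They were already background-subtracted and dye-normalised, with surrogate values for some dim spots. The deposited log10 ratio column served only as a check and matched the ratios taken here. A table of log2 values deposited by the authors was an alternative. It correlated at 0.912 to 0.923 with the same array and at most 0.689 with others over 54557 probes, its column medians were -0.04, 0.03, 0.05 and 0.005, and its within-array normalisation is not known.

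Control spots and spots flagged as outliers by the software were left out, log2(Cy5/Cy3) was taken, repeated spots were averaged by probe, and the autosomal median of each array was subtracted, with no loess step. Of the probes, 54669 were present on all arrays. The fits were made by lmFit and eBayes of limma (version 3.58.1, R 4.3.3) and first tested on simulated data. The number of arrays limits the precision, and the smallest two-sided p of an exact sign-flip permutation over 4 arrays is 0.125. Names are those of the array design.

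The members, lists and tests were chosen with earlier results of these data known. Named were all Hist2 and Hist3 members, of Hist1 the highest and lowest called and the extremes of each class, up to 3 called genes of each list and up to 5 called neighbours a cluster, by size. 1 gene that the rule names is not reported here. Hist1h2be, which this rule does not name, is described because all 7 members are. The alternatives were other background corrections, centrings, filters, flanks, sizes and slide handling, and leaving out each array. Normexp differed from the main values in dye normalisation as well as in background correction.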

Additional observations from a re-analysis of the deposited data

Results flagged for a closer look

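Hist1h2bg had log2 ratios of 0.39, 0.40 and 0.38 on replicates 1, 2 and 3 and 0.20 on replicate 4, which stood apart from the other 3 by 0.904 of the range of all 4. Of 15 sets of 4 array values examined in this way, it was the only one, and chance gives about 1 in 20.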

How the results depend on the processing

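No paired analysis was possible because there is only 1 group and the pool has no replicates. Histone genes called against the pool numbered 3, 1 to 3 with each array left out in turn, and 1 with a size limit of 0.5. Those called against the flank numbered 2, 1 to 4 with each array left out, 4 with normexp and 4 after GC correction. Among those called after GC correction, Hist1h2bg was higher than its flank. The list of histone RNA and locus factors gave 4 calls, 2 to 3 with each array left out, 2 with slide means as samples and 8 with only probes well above background. The share of all autosomal genes called was not counted under these alternatives. Their counts therefore have no background beside them and are not results about the members. The alternatives for the lists, the fit by probe, the slide contrast, and the counts over bright genes or the second Hist1h2ac probe were chosen after seeing the data. The Hist2 cluster, and so Hist2h2be, against its flank was -0.057 with normexp in place of 0.11. Means near 0 against the pool changed sign. Hist1h2ac was 0.088 with normexp and between -0.55 and 0.19 with each array left out. Hist1h2be lay between -0.039 and 0.061 with each array left out, at -0.12 with normexp, -0.0044 with bright probes, -0.016 centred on the mode and -0.045 in the deposited table. Hist2h2be lay between -0.020 and 0.038 with each array left out, at -0.18 with normexp, -0.0090 with bright probes, -0.0203 centred on the mode, -0.012 in the deposited table and -0.029 after GC correction. The cause was not tested. With 4 arrays and 1 or 2 probes a gene, dim sample spots limit Hist1h4i and Hist1h2ac most.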
